A study of Homo sapiens with 12 samples.

Results

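H3K27me3 and H3K4me3, 2 histone marks with opposite known roles, were compared gene by gene in KBM-7, a near-haploid human cell line derived from chronic myeloid leukaemia. Regions of either mark were sought within 1 kb of the annotated ends of 19821 protein-coding genes on chromosomes 1 to 22 and X, and 15686 of these genes (79.1%) had at least 1 of the marks there. Each gene fell into 1 of 4 classes, H3K27me3 only, both marks, H3K4me3 only or neither. All cells were untreated and grown in IMDM with fetal calf serum, and no genetic change or agent separated the libraries. Formaldehyde-fixed chromatin was immunoprecipitated once with an antibody against each mark, so there was no replicate and no test could be made against replicate error. Of the 12 samples of the series, 9 were immunoprecipitated for 1 mark each and 3 were inputs. By the labels H3K27me3 had an input of its own, while H3K4me3 shared one with H3K9ac and H3K79me2, so a difference between them cannot be told apart from a difference between inputs.

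H3K27me3 is laid down by Polycomb repressive complex 2 and is known from silent genes, above all those of developmental regulators and of other tissues. H3K4me3 is laid down by the COMPASS family of methyltransferases and is known from the starts of active genes and from CpG islands, stretches of DNA rich in the CG dinucleotide. Starts that carry both marks are called bivalent and were described at developmental genes in embryonic stem cells. In the bulk material used here, a gene with both marks may carry them in the same cell or in different cells, and these cannot be told apart.

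The files gave called regions without read counts or scores. Sequencing depth is therefore unknown, and intervals on shares below are 95% Wilson intervals that cover counting error only. H3K27me3 had 117702 joined regions with a median width of 5000 bp over 914.4 Mb. H3K4me3 had 14803 with a median of 900 bp over 15.75 Mb. Marker genes were set against the label of the line. Of 14 genes of blood progenitors, 2 (CD38, KIT) had H3K27me3 only, 0 had both marks, 10 had H3K4me3 only, among them CD34, GATA2, MYB and RUNX1, and 2 (LMO2, CD33) had neither. Of 16 markers of epithelium, liver, neurons and fibroblasts, 13 had H3K27me3 only, TWIST1 had both, 0 had H3K4me3 only, and APOA2 and SYN1 had neither.

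The promoters of the classes differed in sequence, and 5 stretches are printed as examples. Each is the 250 bases just before the annotated start of a gene, from RefSeq (GRCh38.p14), written 5′ to 3′ on the strand of the gene. From each class, among genes chosen by the rule for named genes and not on the chromosome left out of printed sequence, the gene whose ratio of observed to expected CG dinucleotides lies nearest to the median of the class is shown, so the stretches illustrate the classes and add no evidence. ZNF268, the next nearest with both marks, stands for the zinc finger genes, the family with the most genes under both marks. Capitals mark each CG dinucleotide. PCDHA1, a clustered protocadherin with H3K27me3 only, has 3 of them (chr5:140785890-140786139, plus strand). CHRNA7, a nicotinic acetylcholine receptor subunit, and ZNF268 hold both marks at the start and have 31 (chr15:32030233-32030482, plus strand) and 13 (chr12:133181245-133181494, plus strand). S100A6, a calcium-binding protein gene with H3K4me3 only, has 24 (chr1:153535992-153536241, minus strand). LOC124905051, a gene with neither mark, has 10 (chr21:5012114-5012363, plus strand). It heads a run of 20 genes with neither mark, where an absent region is uncertain. The ratio was taken over the printed 250 bases and the 50 after the start, and it also depends on the number of C and G. It was 0.464 at PCDHA1, 0.855 at CHRNA7, 0.856 at ZNF268, 0.866 at S100A6 and 0.338 at LOC124905051. Over the printed bases alone it was 0.4845, 0.816, 0.688, 0.803 and 0.381 in the same order. LOC124905051 thus has more CG dinucleotides than PCDHA1 at a lower ratio.
PCDHA1: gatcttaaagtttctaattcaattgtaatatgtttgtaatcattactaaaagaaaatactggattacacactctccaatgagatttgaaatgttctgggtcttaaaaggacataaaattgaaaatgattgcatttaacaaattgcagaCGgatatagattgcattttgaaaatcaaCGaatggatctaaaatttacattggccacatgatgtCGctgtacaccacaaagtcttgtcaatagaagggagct
CHRNA7: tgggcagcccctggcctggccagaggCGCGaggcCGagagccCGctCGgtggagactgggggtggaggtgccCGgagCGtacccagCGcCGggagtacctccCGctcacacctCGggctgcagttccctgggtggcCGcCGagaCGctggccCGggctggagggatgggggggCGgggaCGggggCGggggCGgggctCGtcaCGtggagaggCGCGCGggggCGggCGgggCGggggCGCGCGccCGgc
ZNF268: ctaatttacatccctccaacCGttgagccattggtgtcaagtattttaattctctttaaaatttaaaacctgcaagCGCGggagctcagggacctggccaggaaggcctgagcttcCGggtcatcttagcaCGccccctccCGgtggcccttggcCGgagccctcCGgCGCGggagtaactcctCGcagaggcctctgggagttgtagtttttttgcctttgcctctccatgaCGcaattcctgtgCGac
S100A6: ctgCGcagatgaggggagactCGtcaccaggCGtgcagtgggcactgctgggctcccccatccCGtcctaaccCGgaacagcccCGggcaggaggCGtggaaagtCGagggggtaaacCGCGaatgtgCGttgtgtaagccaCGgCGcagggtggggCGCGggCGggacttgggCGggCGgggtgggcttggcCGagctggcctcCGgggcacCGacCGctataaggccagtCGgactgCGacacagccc
LOC124905051: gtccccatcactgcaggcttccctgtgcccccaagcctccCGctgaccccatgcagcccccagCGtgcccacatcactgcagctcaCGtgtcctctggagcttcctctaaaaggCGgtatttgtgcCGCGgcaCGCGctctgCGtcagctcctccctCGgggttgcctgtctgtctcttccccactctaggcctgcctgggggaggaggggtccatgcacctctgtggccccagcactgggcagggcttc

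In these examples the windows around the starts were covered as follows. H3K27me3 covered all 2001 bp of the PCDHA1 window, and H3K4me3 none of it. At CHRNA7, H3K27me3 covered 2001 bp and H3K4me3 450 bp of the same window, so the whole H3K4me3 region lay inside H3K27me3. The far part of CHRNA7 has a near-identical copy close by, so the absence of both marks from its end window is uncertain. At ZNF268 the window held 506 bp of H3K27me3 and 900 bp of H3K4me3. S100A6 had 600 bp of H3K4me3 at its start and no H3K27me3 at either end.

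H3K27me3 without H3K4me3 was found at 5438 genes, or 27.4% (26.8 to 28.1). Both marks were found at 1020 genes, or 5.15% (4.85 to 5.46). H3K4me3 alone was found at 9228, or 46.6% (45.9 to 47.2), and neither at 4135, or 20.9% (20.3 to 21.4). The doubly marked genes made up 15.8% (14.9 to 16.7) of all genes with H3K27me3 and 9.95% (9.39 to 10.6) of all genes with H3K4me3. The share with both marks was 2.06% among regions no narrower than the median of their mark, 3.18% where at least 500 bp had to be covered, 8.65% within 2.5 kb and 8.94% over the whole gene span. Among genes without another gene within 5 kb, 39.3% had H3K27me3 only and 35.8% H3K4me3 only, in turned order. The shares at 1 kb are the background for the families below. Since the classes were defined by the same regions, the counts describe these libraries and carry no test.

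Families of secreted, structural and signalling proteins of differentiated tissues lay mostly in the H3K27me3-only class. Of 53 families with at least 10 genes, this was the most frequent class in 30, against 19 for H3K4me3 only, 4 for neither and 0 for both. The 30 also hold families of transcription factors. Among these, the Kruppel-like factors were tied, with 11 genes each in the H3K27me3-only and H3K4me3-only classes. All 16 kallikreins, a family of secreted serine proteases, had H3K27me3 only. So did 29 of 30 late cornified envelope and SPRR genes, which build the outer barrier of the skin, and 50 of 55 keratins. All kallikreins but KLKB1, which is on chromosome 4, lie in 1 cluster on chromosome 19. KLK10, KLK11 and KLK12 were under the same region of 41000 bp, so the kallikrein counts share a source. Of the clustered protocadherins, neuronal adhesion proteins, 43 of 53 had H3K27me3 only. The PCDHA genes among them share 1 annotated end, so they are not separate observations.

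Receptors and channels of excitable cells followed the same order at a lower share. H3K27me3 only was found at 24 of 31 receptors for serotonin, dopamine and noradrenaline, with ADRA2C under a region of 30500 bp, and at 48 of 71 receptors for GABA, glycine, glutamate and acetylcholine. It was also found at 64 of 96 potassium channel genes and 23 of 36 voltage-gated sodium and calcium channel genes. Among genes of the extracellular matrix, 33 of 44 collagens had H3K27me3 only, and COL13A1 had a region of 49500 bp. For chemokines, which attract leukocytes, the count was 29 of 43, and for type I interferons 12 of 17.

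H3K4me3 only was found at 7 of 36 voltage-gated sodium and calcium channel genes and 9 of 96 potassium channel genes. KRT8 and KRT18, the keratin pair of simple epithelia, lie next to each other and had 1 H3K4me3 region of 1500 bp between them. They were the only keratins with H3K4me3 at an end. PCDHGA10 and PCDHGC3 were the corresponding protocadherins, with narrow regions of 450 and 300 bp. Among collagens the exceptions were COL5A2, COL6A1 and COL6A2, and among chemokines CXCL2 and CXCL3, ligands that attract neutrophils, with 1050 and 450 bp. Of the serpins, protease inhibitors for the most part, SERPINB1, SERPINB6, SERPINE2 and SERPINH1 had H3K4me3 only. SERPINH1 encodes a chaperone for collagen rather than an inhibitor.

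Families of developmental regulators differed in their classes. Of 119 homeobox genes outside the HOX clusters, 71 had H3K27me3 only, 10 both, 24 H3K4me3 only and 14 neither. Forkhead factors were at 23, 1, 15 and 12 of 51 in the same order of classes, and WNT ligands at 12, 0, 3 and 4 of 19. Kruppel-like factors were at 11, 1, 11 and 4 of 27 and BMP and GDF ligands at 8, 0, 9 and 4 of 21, with no lean to H3K27me3. WNT5A, WNT2 and WNT6 lay under H3K27me3 regions of 32000, 29000 and 36500 bp. WNT9A, WNT10B and WNT11 had H3K4me3 only, over 300, 600 and 900 bp. Of 39 HOX genes, 23 had H3K27me3 only, 0 had both, 9 had H3K4me3 only and 7 had neither. HOXA had 0 genes with H3K27me3 only and 7 of 11 with H3K4me3 only, HOXB 6 and 2 of 10, HOXC 8 and 0 of 9, and HOXD 9 and 0 of 9. No HOX gene thus had both marks at its ends.

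Genes for the basic machinery of the cell lay in the H3K4me3-only class. This held for 79 of 81 cytosolic ribosomal protein genes, 69 of 77 mitochondrial ribosomal protein genes, 36 of 39 spliceosome genes, 45 of 51 translation initiation factors and 27 of 30 RNA polymerase subunits. DEAD and DEAH box helicases, at 44 of 53, and proteasome subunits, at 38 of 48, were also mostly in this class. H3K27me3 only was found instead at 1 of the spliceosome genes, 3 of the initiation factors, 2 of the helicases and 1 of the proteasome genes. The ribosomal protein and RNA polymerase families had 0 such genes. DDX4 encodes a helicase of germ cells, and DDX53 a related helicase. EIF4E3 is a cap-binding protein, and it lay under a region of 65000 bp. PSMG4 encodes a proteasome assembly factor and had 2001 bp of H3K27me3 at its annotated start and none at its end. No RefSeq promoter was matched within 1 kb of that start. H2AC1 and H2BC1, a neighbouring pair of histone genes known from testis, were the histone genes with H3K27me3 only, under 1 region of 16000 bp, whereas 0 histone genes had both, 35 of 69 had H3K4me3 only and 32 had neither. Histone genes of 1 type encode near-identical proteins, and how far reads could be placed uniquely in their windows was not tested. Regions without uniquely placed reads cannot be told apart from regions without either mark.

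**Figure D1:**
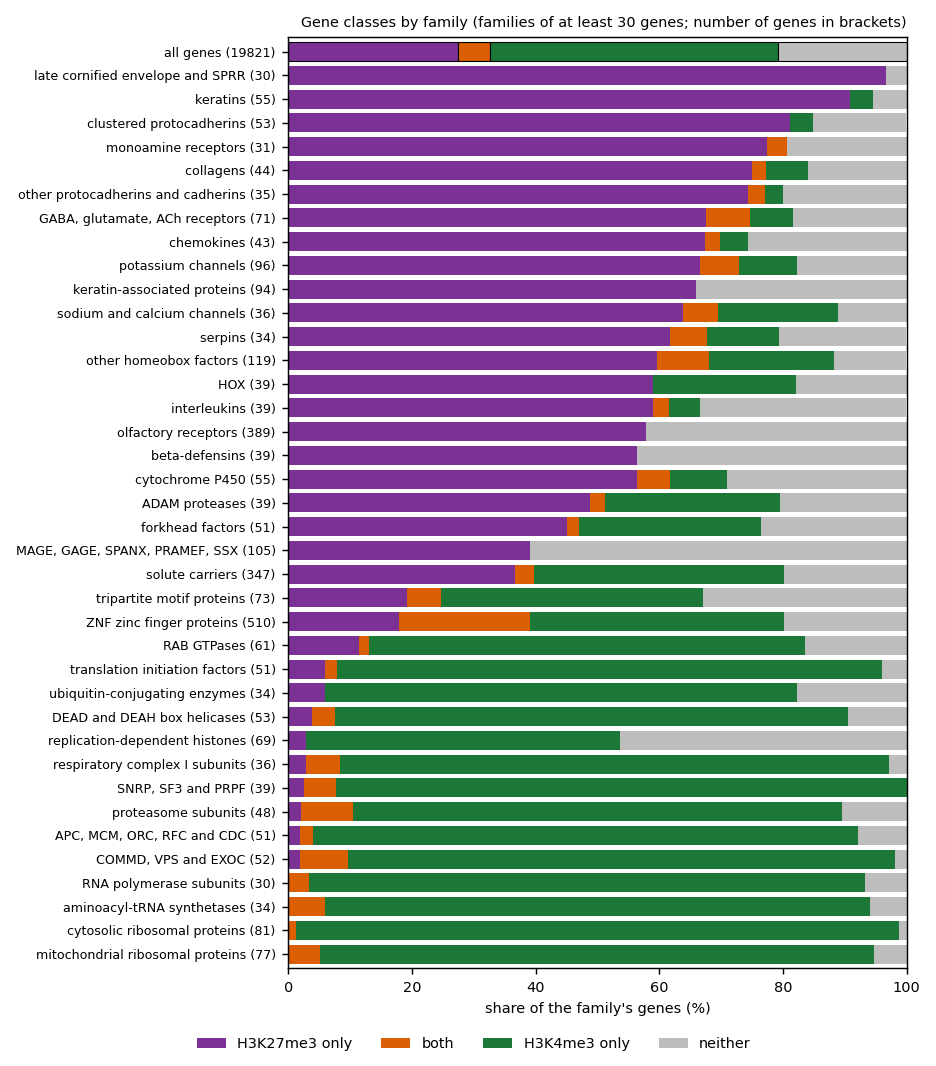
Share of the genes of each family, in per cent, with H3K27me3 only, both marks, H3K4me3 only and neither, for families with at least 30 genes, ordered by the share with H3K27me3 only; the top bar with a black outline gives all 19821 genes. The share with both marks is largest in the ZNF zinc finger family, at 21.2%.

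Olfactory receptors and keratin-associated proteins, which make up hair, had no gene with H3K4me3 at an end. Of 389 olfactory receptor genes, 225 had H3K27me3 only and 164 neither, and of 94 keratin-associated protein genes, 62 and 32. The genes of the MAGE, GAGE, SPANX, PRAMEF, SSX and XAGE families, known from testis and tumours, had H3K27me3 only at 41 of 105 and neither at 64. Many of these genes have near-identical copies, for which an absent region is uncertain. In all, 8 families of at least 10 genes had 0 genes in the classes with H3K4me3.

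The zinc finger genes named ZNF, most of which encode KRAB repressors of transposable elements, stood out among the families by their number of genes with both marks. Of 510 such genes, 91 (17.8%) had H3K27me3 only, 108 (21.2%) both, 210 (41.2%) H3K4me3 only and 101 (19.8%) neither, where 5.15% of all genes had both. Among wider regions the count with both marks was 38 of 510, where 2.06% of all genes had both. On chromosome 19, where many of them lie in clusters, both marks were at 65 of 246 (26.4%, 21.3 to 32.3), and on other chromosomes at 43 of 264 (16.3%, 12.3 to 21.2). Other genes of chromosome 19 had both marks at 41 of 1164 (3.52%, 2.61 to 4.74), a share below that of all genes. In the 94 ZNF genes with both marks and a known start, the start held both in 38, or 40.4% (31.1 to 50.5). In the other 56, or 59.6% (49.5 to 68.9), H3K4me3 was at the start and H3K27me3 only at the end. In doubly marked genes outside the family these shares were 54.5% (50.8 to 58.2) and 41.2% (37.7 to 44.9).

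The ZNF genes also formed the longest runs of doubly marked neighbours. ZNF140, ZNF891, ZNF10 and ZNF268 follow each other on chromosome 12 (133080425 to 133214832), where H3K27me3 covered 75.2% of the stretch, which held 4 H3K4me3 regions. ZNF140 had 1425 bp of H3K27me3 and 825 bp of H3K4me3 at its start and 2001 bp of H3K27me3 at its end. ZNF805, ZNF460, ZNF543 and ZNF304 follow each other on chromosome 19 (57240632 to 57359898), with 37.7% of the stretch under H3K27me3 and again 4 H3K4me3 regions. ZNF304 at the edge of that run had 750 bp of H3K4me3 at the start and only 103 bp of H3K27me3 at the end.

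Both marks shared an end in 571 of the 1020 doubly marked genes, or 56.0% (52.9 to 59.0), and lay at opposite ends only in 449, or 44.0% (41 to 47.1). Which was more frequent depended on the settings, as the share at 1 end was 49.2% with windows of 500 bp, 44.0% where at least 500 bp had to be covered and 49.3% among wider regions (those no narrower than the median of their mark). The strand, and thus which annotated end is the start, was known for 802 of them. A RefSeq promoter lay within 1 kb of that start in 743. Of the 802, the start held both marks in 424, or 52.9% (49.4 to 56.3). H3K4me3 was at the start and H3K27me3 only at the end in 348, or 43.4% (40 to 46.9). The reverse, with H3K27me3 at the start and H3K4me3 only at the end, was found in 30, or 3.74% (2.63 to 5.29). Under the same 3 settings both marks at the start came to 46.6%, 41.7% and 43.6%, and H3K27me3 only at the end to 50.5%, 55.5% and 52.5%, so the order of these arrangements turned. Counted by the start window alone, 424 of 15812 genes (2.68%, 2.44 to 2.95) had both marks.

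The genes with a single mark show how each mark is placed along a gene. H3K27me3-only genes with a known start had the mark at the start only in 25.1%, at both ends in 64.4% and at the end only in 10.5% of 4173. H3K4me3-only genes had it at the start only in 92.8%, at both ends in 5.69% and at the end only in 1.56% of 7698. H3K27me3 covered a median of 85.5% of the gene body in its own class (interval of the median 84.5 to 86.4), 9.48% where both marks were at the start and 0% where H3K4me3 was alone.

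Where the start held both marks, their regions shared sequence in 231 of 424 genes, or 54.5% (49.7 to 59.2), and lay side by side within the window in the others. Of the 8 genes with the most shared sequence in 1 window, RBPMS, an RNA-binding protein gene, had 1841 bp under both marks, DUSP4, a phosphatase of MAP kinases, 1717 bp, and PLAG1, a zinc finger transcription factor, 1300 bp. These 3 genes lie on chromosome 8, which is present in more than 1 copy in this line. NEO1, a receptor for netrins and RGM proteins, had 1192 bp of H3K4me3 in a start window that H3K27me3 covered in full, and lies in the stretch of chromosome 15 that is also known to have a further copy. DLGAP3, a scaffold of the synapse, had 1350 bp of H3K4me3 in such a window, although its strand was not known. IRS2, which relays signals of the insulin receptor, had 1501 bp of H3K27me3 and 1233 bp of H3K4me3 at its start. CYP27C1, a cytochrome P450 enzyme, had 1501 and 1252 bp.

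Several developmental regulators and neural genes had both marks, and those named in the following sentences were picked with their values in view. Against 5.15% of all genes, both marks were held by 10 of 119 homeobox genes outside the HOX clusters (8.40%), 1 of 19 SOX factors (5.26%) and 1 of 17 T-box factors (5.88%) and 0 of 39 HOX genes. GATA6, a factor of endoderm and heart, was the 1 of 6 GATA factors with both marks. It had 2001 bp of H3K27me3 and 439 bp of H3K4me3 at its start. EOMES, a T-box factor, had 2001 bp of H3K27me3 and 88 bp of H3K4me3, which thus reached only the edge of the window. ISL1 and MSX2, homeobox factors, had 2001 bp of H3K27me3 each, with 450 and 600 bp of H3K4me3. SOX5 had 2001 and 300 bp. The 5 doubly marked genes among 71 receptors for GABA, glycine, glutamate and acetylcholine (7.04%), CHRM3, GRM8, CHRNA7, CHRNA3 and GRIN3B, held both marks at the start, with 1082 to 2001 bp of H3K27me3 and 450 to 750 bp of H3K4me3. OTX1, POU3F3 and MSX1, also homeobox genes, had the other arrangement, with 1085, 1551 and 965 bp of H3K4me3 at the start and 170, 1228 and 436 bp of H3K27me3 at the end only.

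The genes with the most covered sequence among those with the marks at opposite ends belonged to varied functions. CNIH3, which encodes an auxiliary subunit of AMPA receptors, had H3K27me3 over all 2001 bp of its end window and H3K4me3 over all 2001 bp of its start window. VTI1A, a SNARE protein of vesicle traffic, and UBE3B, a ubiquitin ligase, had 2001 bp of H3K27me3 at the end and 1988 and 1917 bp of H3K4me3 at the start. MTERF4, a factor of mitochondrial ribosomes, and THAP4 had 2001 bp of H3K27me3 at the end with 1837 and 1875 bp of H3K4me3 at the start. LSR, a lipoprotein receptor, was the reverse, with 2001 bp of H3K27me3 at its start and 2001 bp of H3K4me3 at its end.

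For the reverse arrangement, the position of other genes was recorded. The end of the gene lay within 2 kb of the known start of another protein-coding gene in 21 of the 30 genes, or 70% (52.1 to 83.3). This was so in 14 of 348 genes with H3K4me3 at the start and H3K27me3 only at the end (4.02%, 2.41 to 6.64), and in 16 of 424 with both marks at the start (3.77%, 2.34 to 6.04). Of the 120 H3K4me3-only genes with the mark at the end only, 86 (71.7%, 63.0 to 78.96) ended that close to another start. A region near such an end cannot be assigned to 1 of the genes.

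RefSeq starts more than 2 kb downstream of the annotated start lay outside the start window. They were counted whether or not another RefSeq start lay at the annotated one. For genes with such a start, H3K27me3 was there in 718 of 1016 H3K27me3-only genes (70.7%, 67.8 to 73.4) and 75 of 154 with both marks (48.7%, 40.9 to 56.5). It was there in 31 of 998 with H3K4me3 only (3.11%, 2.20 to 4.38) and 58 of 726 with neither (7.99%, 6.23 to 10.2). H3K4me3 was there in 119 (11.7%, 9.88 to 13.8), 25 (16.2%, 11.2 to 22.9), 314 (31.5%, 28.7 to 34.4) and 292 (40.2%, 36.7 to 43.8) of these genes. The class with neither mark at its ends thus had the highest share with H3K4me3 at such a start, and it is not a class of unmarked genes. Whether that start was the only one of its gene was not examined.

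The other marks of the series, which the classes did not use, differed with the arrangement. H3K9ac, an acetylation of active starts, was at the start of 80.0% (75.9 to 83.5) of the 424 genes with both marks there, at 96.0% (93.4 to 97.6) of the 348 with H3K27me3 only at the end, and at 97.9% (97.5 to 98.2) of the H3K4me3-only genes. H3K79me2, known from transcribed genes, was at 30.9% (26.7 to 35.5), 51.1% (45.9 to 56.4) and 69.9% (68.9 to 70.9). H3K27ac, which occupies the same lysine as H3K27me3, was at 0.472% (0.130 to 1.70), 5.17% (3.30 to 8.03) and 11.4% (10.7 to 12.1). It was called at few starts in every group, at 2 of 424, 18 of 348 and 878 of 7698 genes. Whether the marks exclude each other was not tested. H3K4me2 was at the start of 100% of the 424, 100% of the 348 and 99.3% of H3K4me3-only genes. In the 30 genes of the reverse arrangement it was at 40% (24.6 to 57.7) of the starts. H3K27me3-only genes had H3K9ac at 4.24%, H3K79me2 at 0.192% and H3K4me2 at 27.5% of their starts. The set of regions deposited under both H3K36me3 and H4K16ac covered at least 25% of the body in 39.4% of genes with both marks at the start, 39.4% of those with H3K27me3 only at the end and 67.3% of H3K4me3-only genes.

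The width of the H3K4me3 region moved with these groups. Its median was 750 bp where both marks were at the start, 900 bp where H3K27me3 was at the end only and 1200 bp in H3K4me3-only genes. Within each of 4 bands of H3K4me3 width the order for H3K79me2 was the same. Among genes whose widest H3K4me3 region was 750 to 900 bp, H3K79me2 was at the start of 37.3% (28.8 to 46.6) of 110, 48.9% (38.7 to 59.1) of 88 and 58.1% (55.7 to 60.5) of 1604 genes in the same order of groups. At 1050 to 1350 bp it was at 55.8% (45.8 to 65.4), 67.0% (57.0 to 75.7) and 76.9% (75.1 to 78.6). The intervals of the doubly marked groups overlap each other in both bands, and those of the first group lie below those of H3K4me3-only genes. The H3K9ac difference was clear among regions of 300 to 600 bp, at 61.2% (54.1 to 67.9), 88.8% (81.0 to 93.6) and 94.0% (92.3 to 95.3), and small at 1050 to 1350 bp, at 97.9%, 98.9% and 99.7%. H3K9ac, H3K79me2 and H3K4me3 share an input by the labels.

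**Figure D2:**
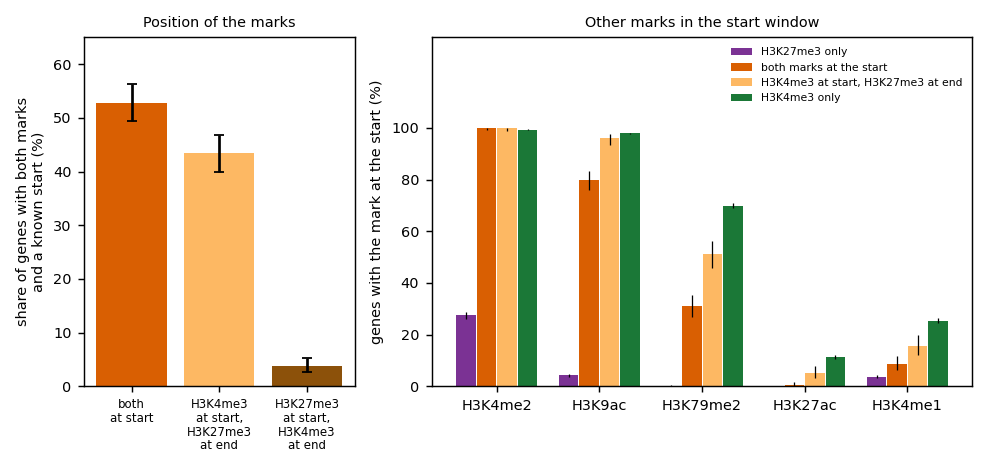
Left, position of the marks in the 802 genes with both marks and a known start, in per cent; right, per cent of genes with another mark within 1 kb of the start, for H3K27me3-only genes, the main arrangements of doubly marked genes and H3K4me3-only genes; bars are shares and lines 95% Wilson intervals. For H3K9ac, H3K79me2, H3K27ac and H3K4me1 the shares are lowest for H3K27me3 only and highest for H3K4me3 only.

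The classes differed in gene length, and most at the extremes. The median length was 25610.5 bp (24052 to 27279) for H3K27me3 only, 45837 bp (40736 to 51673) for both, 28800 bp (27960 to 29706) for H3K4me3 only and 12708 bp (12151 to 13489) for neither. The medians of the single classes lay close to each other, but H3K27me3-only genes were spread more widely, with quartiles of 7795.5 and 87014 bp, against 11632 and 65817.8 bp for H3K4me3-only genes. Of the 1210 genes under 2 kb, 34.8% (32.2 to 37.5) had H3K27me3 only and 17.2% (15.2 to 19.4) H3K4me3 only. Between 20 and 50 kb the order was turned, at 22% (20.8 to 23.2) and 55.6% (54.2 to 57.0). Among 314 genes of at least 500 kb it turned again, at 62.1% (56.6 to 67.3) and 15.6% (12.01 to 20.03). H3K27me3 alone was thus more frequent than H3K4me3 alone in the shortest and the longest genes and less frequent between 2 and 200 kb. From 200 to 500 kb the single classes were at 41.1% (38.2 to 44.1) and 37.8% (34.96 to 40.7), with overlapping intervals.

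The share with both marks went up with gene length throughout. It was 0.579% (0.281 to 1.19) under 2 kb, 5.47% (4.85 to 6.15) from 20 to 50 kb, 10.6% (8.93 to 12.6) from 200 to 500 kb and 14.65% (11.2 to 18.99) at 500 kb and above. Both marks in the start window alone, which has the same size in every gene, were found in 0.437% (0.170 to 1.12), 2.72% (2.25 to 3.29), 4.47% (3.30 to 6.04) and 7.63% (4.996 to 11.5) of genes with a known start in these bands. In the bands from 2 to 100 kb this start share stayed between 1.91% and 2.72%, with overlapping intervals. The longest doubly marked genes included DLG2, a synaptic scaffold of 2173362 bp, and DAB1, an adaptor of Reelin signalling. DLG2 had 2001 bp of H3K27me3 at its end and 1423 bp of H3K4me3 at its start, and DAB1 had 1778 and 750 bp. GALNTL6, which is 1228156 bp long, held both marks at the start, with 2001 bp of H3K27me3 and 300 bp of H3K4me3. Short doubly marked genes were few, and in MTLN and PPDPF the windows of the ends overlap, so that 1 H3K4me3 region reached both.

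**Figure D3:**
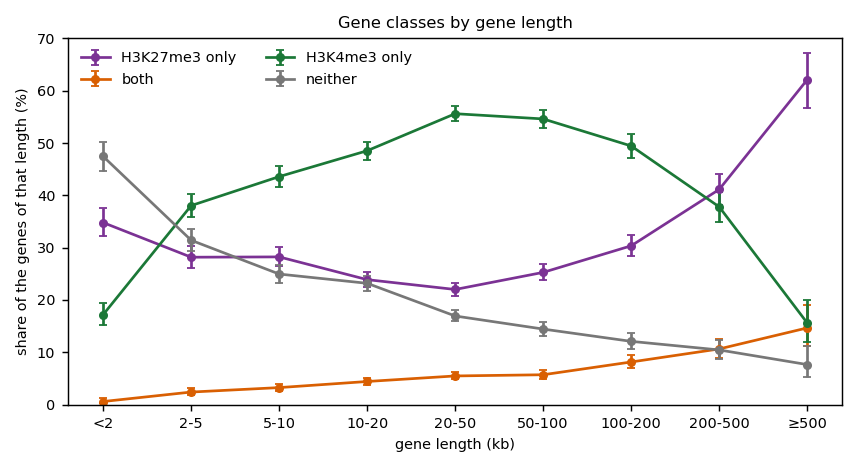
Share of the genes of each length band, in per cent, that fall in each class, against gene length in kb; points are shares and bars 95% Wilson intervals. H3K27me3 only falls to 22% at 20 to 50 kb and is 62.1% at 500 kb and above, while both marks reach 14.65% there.

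Genes of the same class lay next to each other more often than the size of the class alone gives. The next gene on the chromosome was of the same class for 54.1% (52.8 to 55.5) of H3K27me3-only genes, where 27.4% of all genes are in this class. The share was 13.4% (11.4 to 15.6) for both, 61.9% (60.9 to 62.9) for H3K4me3 only and 39.2% (37.7 to 40.7) for neither. Part of this comes from neighbours under 1 region: 28.6% of neighbouring H3K27me3-only pairs and 26.6% of neighbouring H3K4me3-only pairs shared a joined region. Among pairs at least 10 kb apart, the next gene was of the same class for 51.4% (49.8 to 53.0) of H3K27me3-only genes, which made up 35.5% of the genes in such pairs, and for 51.9% (50.4 to 53.4) of H3K4me3-only genes, which made up 39.0%. The median gap between neighbours of the same class was 23103 bp for H3K27me3 only and 3985 bp for H3K4me3 only.

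Genes with both marks mostly had neighbours of other classes. Of 884 runs of the class, 762 were a single gene, and none had 5 genes or more. The gene after a doubly marked one had H3K27me3 only in 37.6% (34.7 to 40.6), both in 13.4%, H3K4me3 only in 36.5% (33.6 to 39.5) and neither in 12.6% of cases. H3K27me3 only was thus more frequent there than among all genes, and H3K4me3 only less frequent. After an H3K27me3-only gene, both marks followed in 7.29% (6.63 to 8.01), and after an H3K4me3-only gene in 4.07% (3.68 to 4.49).

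**Figure D4:**
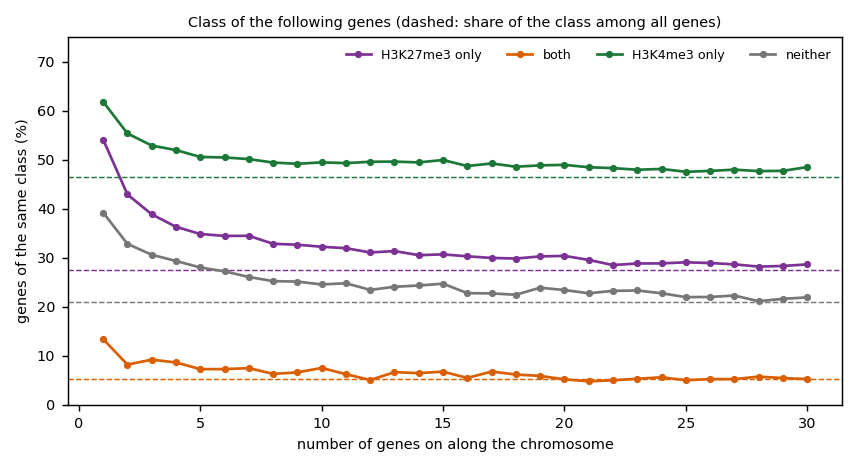
Per cent of genes of each class for which the gene 1 to 30 places on along the chromosome is of the same class; points are shares, and the dashed line of each colour is the share of that class among all genes. The H3K27me3-only share is 54.1% at the next gene and approaches its dashed line of 27.4% over about 30 genes.

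Runs of at least 5 genes held 29.2% of H3K27me3-only genes in 216 runs, 0% of doubly marked genes, 37.9% of H3K4me3-only genes in 502 runs and 18.9% of genes with neither mark in 94 runs. The longest H3K27me3-only run was the epidermal differentiation complex on chromosome 1 (152084141 to 153003856), with 35 genes from TCHHL1 to SPRR3, 23 of them late cornified envelope or SPRR genes. H3K27me3 covered 84.9% of this stretch. Next came keratin-associated proteins and keratins on chromosome 17, with 33 genes from KRTAP4-6 to KRT17 and 25 from KRT222 to KRTAP4-8, and 31 protocadherins on chromosome 5 from PCDHA1 to PCDHB15. A run of 21 keratins on chromosome 12 (52314301 to 52848994), from KRT83 to KRT78, was 93.3% under H3K27me3. None of these 5 stretches held an H3K4me3 region. KRT8 and KRT18 lie just beyond the end of the chromosome 12 run.

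The longest H3K4me3-only runs held genes of mixed function. That on chromosome 2 (63119559 to 68580162) ran over 24 genes from WDPCP to APLF, among them MEIS1, a homeobox factor of blood progenitors. H3K27me3 covered 37.1% of the stretch, although it touched no gene end there. The next runs were more compact and nearly free of H3K27me3. The 20 genes from HIP1R to ATP6V0A2 on chromosome 12 were 1.83% covered, the 19 from RPS29 to NIN on chromosome 14 0.595% and the 16 from NCKIPSD to KLHDC8B on chromosome 3 0%.

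The longest run with neither mark was 42 genes on chromosome 11 from OR4C13 to OR5M9, of which 40 are olfactory receptors, and it spans the centromere. Further such runs lay in clusters of near-identical copies, among them 26 genes around the beta-defensins of chromosome 8 and 21 genes from FAM90A26 to USP17L30 on chromosome 4. An absent region is uncertain there, as reads from such copies are hard to place. It is equally uncertain for the 20 genes from LOC124905051 to POTED on chromosome 21.

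The CpG content of promoters differed between the classes. The ratio of observed to expected CG dinucleotides over 250 bases before and 50 after the start had a median of 0.4505 (0.427 to 0.480) for H3K27me3 only, 0.849 (0.832 to 0.862) for both, 0.867 (0.862 to 0.871) for H3K4me3 only and 0.360 (0.345 to 0.377) for neither, over 14541 promoters. A ratio of at least 0.6 was found in 41.02% (39.4 to 42.6), 87.2% (84.6 to 89.4), 90.4% (89.7 to 91.1) and 32.5% (30.7 to 34.3) of these classes, and in 67.0% of all promoters. For the doubly marked and H3K4me3-only classes the intervals of the medians touch, and those of the shares do not overlap. The letters TATAAA, on the gene strand within 50 bases before the start, were found in 8.11% (7.27 to 9.03) of H3K27me3-only promoters, 0.538% (0.210 to 1.38) of those with both marks, 1.59% (1.33 to 1.904) of H3K4me3-only ones, 6.01% (5.18 to 6.97) of those with neither and 4.01% of all.

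Where the promoter had a CpG ratio below 0.2, 52.8% of 1755 genes had H3K27me3 only, 0.513% both, 3.99% H3K4me3 only and 42.7% neither. At 0.8 to 1.0 these shares were 13.2%, 7.01%, 72.1% and 7.64% of 4820 genes. Divided at a ratio of 0.6, the H3K27me3-only genes with the higher ratio were longer, with a median of 44126.5 bp (39524 to 49992) against 14695.5 bp (13550 to 15849). H3K4me2, which the classes did not use, was at an end of 53.6% (51.1 to 56.2) of the 1508 genes with the higher ratio and 15.9% (14.4 to 17.5) of the 2168 with the lower one. For H3K9ac these shares were 9.75% (8.35 to 11.4) and 1.52% (1.09 to 2.13).

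**Figure D5:**
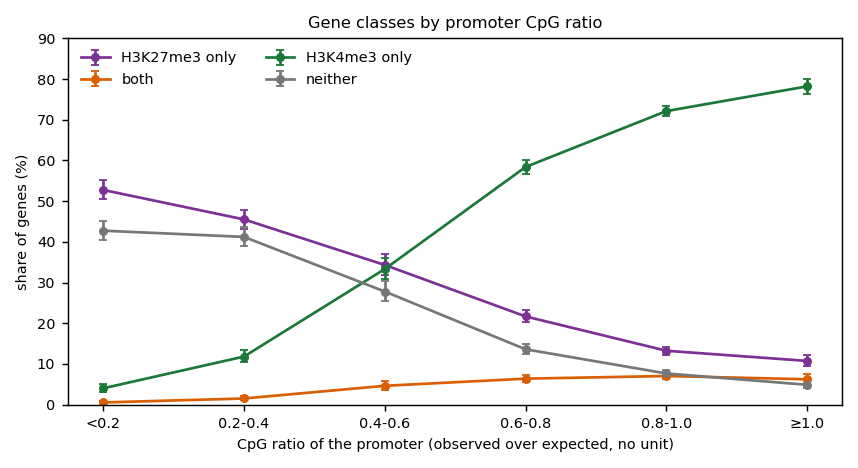
Share of genes in each class, in per cent, against the CpG ratio of the promoter (observed over expected, no unit), over 14541 promoters; points are shares and bars 95% Wilson intervals. H3K4me3 only is at 3.99% below a ratio of 0.2 and 72.1% at 0.8 to 1.0, and H3K27me3 only at 52.8% and 13.2%.

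The stretches of higher copy number were looked at apart. KBM-7 is known to carry chromosome 8 and a stretch of chromosome 15 in 2 copies and the other chromosomes in 1. Both marks were at 59 of 707 genes of chromosome 8 (8.35%, 6.53 to 10.6), at 17 of 259 in the stretch of chromosome 15 (6.56%, 4.14 to 10.3) and at 944 of 18855 other genes (5.01%, 4.70 to 5.33). The interval of the chromosome 15 stretch holds the share of other genes. Chromosome 19, in 1 copy, was at 7.52%, with its ZNF genes at 26.4% and its other genes at 3.52%. H3K4me3 regions were wider in the 2-copy stretches. The median of the widest H3K4me3 region at marked genes was 2100 bp on chromosome 8, 1950 bp in the stretch of chromosome 15, 1200 bp in the rest of chromosome 15 and 1200 bp over all other genes. For H3K27me3 these medians were 20500, 28500, 20500 and 16000 bp, so the single-copy rest of chromosome 15 equalled chromosome 8. With 2 copies the marks may lie on different ones, and more material is sequenced per gene, and these cannot be told apart.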

How the data were processed

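The data are 1 list of called intervals, deposited by the authors with chromosome, start, end and mark name, without count, score or signal. Cutadapt, Bowtie2, MACS and GRCh38 are named in the submitters' processing notes; versions and thresholds: not given in the sources used here. Starts follow a mix of conventions and were brought to 1. H3K4me3 intervals start on a grid of 150 bp. H3K27me3 uses 500 bp, with a length of 1000 bp in 84.3% of cases. These differing settings limit comparison of widths between marks. H3K36me3 and H4K16ac hold the same 45695 intervals. Intervals under 1 further name matched no sample and were not used.

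Overlapping or adjacent intervals were joined. A gene was marked where a region overlapped a window of 1 kb on either side of an annotated end by at least 1 bp. Of 19974 protein-coding genes in the RefSeq table (GRCh38.p14), 153 carry coordinates of other scaffolds and were left out, leaving 19821. RefSeq promoters matched by gene identifier and chromosome gave the strand for 15812. The other 4009, all 707 of chromosome 8 among them, were used without it. CpG ratios used 14541 promoters within 1 kb of the annotated start. The start results used the annotated start of all genes with a strand, whether or not a promoter lay within 1 kb.

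Families were defined by gene symbol. Genes, classes and lists were chosen with earlier results of these data known. The genes named were, per family, up to 3 with the most covered bp (ties by name) and all members against the family where 4 or fewer, then the ends of the longest runs, the doubly marked genes with most shared bp, with most covered bp at opposite ends, and the longest and shortest; the text names a selection. No p-value was computed, as each mark has 1 library; medians have order-statistic 95% intervals. Functions were tested on simulated intervals, where 6623 of 6623 planted classes were recovered. Python 3.11.15, numpy 2.4.6, pandas 2.3.3 and matplotlib 3.10.9 were used.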

Additional observations from a re-analysis of the deposited data

How the results depend on the processing

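The classes were recomputed with windows of 500 bp and 2.5 kb, at least 500 bp of a window covered, regions no narrower than the median of their mark, the whole gene span, genes without another within 5 kb, and with the 2-copy stretches of chromosomes 8 and 15 left out; the genes listed on other scaffolds were added after the data were seen, as were the start arrangements and width bands. Of 138 values, 84 stayed close (within their interval, or within 1.5 times for class shares), and 54 moved; all 15 without the 2-copy stretches and all 13 with the scaffold genes stayed close. The cause of the moves was not tested. No paired analysis was possible because each mark has 1 library, and the number 1 that each carries only names it.

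The share with both marks was 8.65% at 2.5 kb, 3.18% at 500 bp of cover, 2.06% with wider regions and 8.94% over the whole span, and with wider regions 34.1% had neither. Among isolated genes 39.3% had H3K27me3 only and 35.8% H3K4me3 only, which turns their order. Among 53 families, H3K27me3 only and H3K4me3 only changed places for S100 proteins at 2.5 kb, for BMP and GDF ligands and solute carriers at 500 bp of cover, for these and the zinc finger SCAN proteins with wider regions, and for none at 500 bp. The share with both marks at 1 end was 49.2% at 500 bp, 65.4% at 2.5 kb, 44.0% at 500 bp of cover, 49.3% with wider regions and 66.5% in isolated genes. In the same order both were at the start in 46.6%, 61.3%, 41.7%, 43.6% and 64.9%, and H3K27me3 only at the end in 50.5%, 31.9%, 55.5%, 52.5% and 34.5%. Which arrangement is the more frequent thus depends on the window.

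Median lengths were 28023 bp for H3K27me3 only, 30609.5 bp for H3K4me3 only and 16340.5 bp for neither with wider regions. Without the clustered families they were 29076 bp for H3K27me3 only and 54420.5 bp for both. For both they were 53151.5 bp at 500 bp and 39473.5 bp at 2.5 kb. Isolated genes had 43623 bp for H3K4me3 only and 13968.5 bp for neither, and neither had 13949 bp at 500 bp of cover.

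The next gene of the same class was found for H3K27me3 only in 55.6% at 2.5 kb, 52.5% without overlapping genes and 52.3% without clustered families. For both it was 11.3% at 500 bp, 19.98% at 2.5 kb, 9.06% at 500 bp of cover, 5.88% with wider regions and 11.2% without clustered families. For H3K4me3 only it was 59.8%, 63.4%, 57.95% and 52.4% under the first 4 of these, and 60.7% without overlapping genes. For neither it was 41.5% at 500 bp of cover, 49.0% with wider regions and 37.2% without clustered families.

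Median CpG ratios with wider regions were 0.527 for H3K27me3 only, 0.877 for H3K4me3 only and 0.629 for neither. At 500 bp of cover they were 0.873 for H3K4me3 only and 0.436 for neither, and at 500 bp 0.383 for neither. With the upstream part alone they were 0.824 for both and 0.852 for H3K4me3 only.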
